A study of Mus musculus with 12 samples.

Results

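The miR-200 family comprised 5 mature microRNAs (miRNAs) of the mouse count tables, miR-200a-3p (MIMAT0000519), miR-200b-3p (MIMAT0000233), miR-200c-3p (MIMAT0000657), miR-141-3p (MIMAT0000153) and miR-429-3p (MIMAT0001537), defined by name and not by a cut-off on measured values. The family was picked with earlier results of these data known. They are 5 of the 874 mature miRNAs listed in at least 1 of the 12 small RNA libraries. The libraries were made from serum of 3 female athymic NCr nude mice (mice 1046, 1047 and 1069), aged 4 to 6 weeks, which lack mature T cells. Each mouse was bled before and 2 weeks after SH-SY5Y cells, an established human neuroblastoma line, had been placed under its renal capsule. RNA from 50 µl of each serum was split into 2 aliquots, 1 of which had its 5′ tRNA-halves, the fragments that fill most of a mouse serum library, removed with biotinylated DNA probes and streptavidin beads. Time point and depletion thus gave 4 groups of 3 libraries. Tumour-free mice bled at the later time are not among the groups, so tumour growth and elapsed time cannot be told apart. Serum collects RNA from many tissues, and a lower share of cells shedding a miRNA and less miRNA shed per cell cannot be told apart either.

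miRNAs of the miR-200 family are a hallmark of epithelial cells. They bind the messengers of ZEB1 and ZEB2, repressors that switch epithelial genes such as E-cadherin off, and the ZEB proteins in turn repress the family's own genes. The family is made from a pair of gene clusters, and it is divided by the seed, the bases near the 5′ end of a miRNA that select its targets.

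The sequences are shown because the members are so alike that a difference between them has to be read base by base. RefSeq sequences were found for 5 of 5 members (genome build GRCm38.p6). Each is given 5′ to 3′ with the seed (bases 2 to 8) in capitals, the first 2 with 1 seed and the last 3 with the other.

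miR-141-3p: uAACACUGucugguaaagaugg

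miR-200a-3p: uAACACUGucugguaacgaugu

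miR-429-3p: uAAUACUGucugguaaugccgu

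miR-200b-3p: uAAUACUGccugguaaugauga

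miR-200c-3p: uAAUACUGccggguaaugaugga

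The seed AACACUG occurred in 2 and the seed AAUACUG in 3 of the 1674 mature sequences of the mouse reference table, and these 5 were the members. miR-200a-3p and miR-141-3p were identical at 20 of 22 bases and differed by C17A and U22G, with positions counted from 1 at the 5′ end and the base of the first-named miRNA given first. miR-200b-3p and miR-200c-3p were also identical at 20 of the 22 bases compared and differed by U11G and A22G, and miR-200c-3p was 1 base longer (23 against 22). It also had the most G and C bases, 10 against 8 in miR-200b-3p and 9 in each of the other members.

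Seed and gene cluster divide the family differently. The hairpins of miR-200b, miR-200a and miR-429 lie on the minus strand of chromosome 4, with their mature 3p strands at chr4:156055685-156055706, chr4:156054911-156054932 and chr4:156053916-156053937. All 3 lie inside the protein-coding gene Ttll10, on its strand and outside its annotated exons, and inside the noncoding transcript Gm13648, of which an exon overlaps the miR-429 hairpin. The hairpins of miR-200c and miR-141 lie on the minus strand of chromosome 6, only 336 bases apart, with mature strands at chr6:124718324-124718346 and chr6:124717917-124717938. Both are inside the noncoding antisense gene Gm15884, and the miR-141 hairpin also overlaps an exon of Gm29008, a gene model still to be tested by experiment. These last 2 hairpins are printed with the mature 3p strand in capitals, because the neighbours behaved differently in the depletion experiment.

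Mir200c hairpin: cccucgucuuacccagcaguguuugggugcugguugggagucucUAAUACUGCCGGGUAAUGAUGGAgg

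Mir141 hairpin: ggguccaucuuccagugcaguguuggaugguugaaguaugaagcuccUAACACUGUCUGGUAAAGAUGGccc

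The libraries differed greatly in depth. Depleted libraries held 938706 to 2271549 mouse miRNA counts and undepleted ones 21235 to 97183, and both smallest totals came from the serum drawn from mouse 1069 before injection. Levels are therefore given as counts-per-million (CPM) of the mouse miRNA counts of the same library. The 5 members together made up 2737 to 6683 counts (0.153% to 0.712%) of a depleted library and 32 to 93 counts (0.0647% to 0.316%) of an undepleted one. Of the cell type markers listed for this report, only miR-16-5p could be matched to the tables. The paper cites it as a miRNA reported to be high and stable in mouse serum, and it is not read here as a measure of red cells. By RT-qPCR, the paper found less of it after bead depletion. The paper also names hsa-miR-16-5p among the miRNAs that differed with the tumour, so it is no fixed reference here. Its share was 5.62% to 12.6% in depleted and 7.14% to 17.8% in undepleted libraries.

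miR-141-3p was the most abundant member in all 12 libraries. In depleted libraries it was at 1166, 770 and 4372 CPM before injection (mice 1046, 1047 and 1069, the order used throughout) and at 1073, 1111 and 879 CPM after. In undepleted libraries it was at 556, 722 and 2166 CPM before and at 572, 577 and 344 CPM after. The serum drawn from mouse 1069 before injection was the highest in both arms, and the other 10 libraries spanned 344 to 1166 CPM.

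miR-200c-3p, which shares a cluster with miR-141 and a seed with miR-200b and miR-429, was the member that depended most on depletion. Its level in depleted libraries was 488, 487 and 1575 CPM before and 622, 694 and 492 CPM after injection. In undepleted libraries it was 20.6, 22.2 and 47.1 CPM before and 0, 38.5 and 60.7 CPM after, resting on 2, 2 and 1 counts and on 0, 2 and 3 counts. The count of 0 in a library of 68140 allows a level of up to 44.0 CPM. The lowest depleted library, at 487 CPM, lay above the highest undepleted one, at 60.7 CPM.

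In depleted libraries miR-429-3p was the third member by level, at 248, 163 and 739 CPM before and 309, 327 and 248 CPM after injection. Without depletion it was at 319, 199.998 and 424 CPM before and 249, 212 and 162 CPM after. The undepleted libraries lay within the range of the depleted ones, apart from the lowest at 162 CPM.

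miR-200a-3p was at 109, 90.6 and 317 CPM before and 133, 113 and 66.5 CPM after injection in depleted libraries. In undepleted libraries its levels of 41.2, 55.6 and 377 CPM before and 44.0, 77.0 and 60.7 CPM after rested on only 3 to 8 counts. miR-200b-3p was the least abundant member of depleted libraries, at 18.5, 20.9 and 116 CPM before and 38.2, 24.1 and 25.5 CPM after. Its undepleted levels of 20.6, 11.1 and 141.3 CPM before and 29.4, 57.7 and 20.2 CPM after came from 1 to 3 counts each. For both miRNAs the first serum of mouse 1069 was again the highest in each arm.

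**Figure D1:**
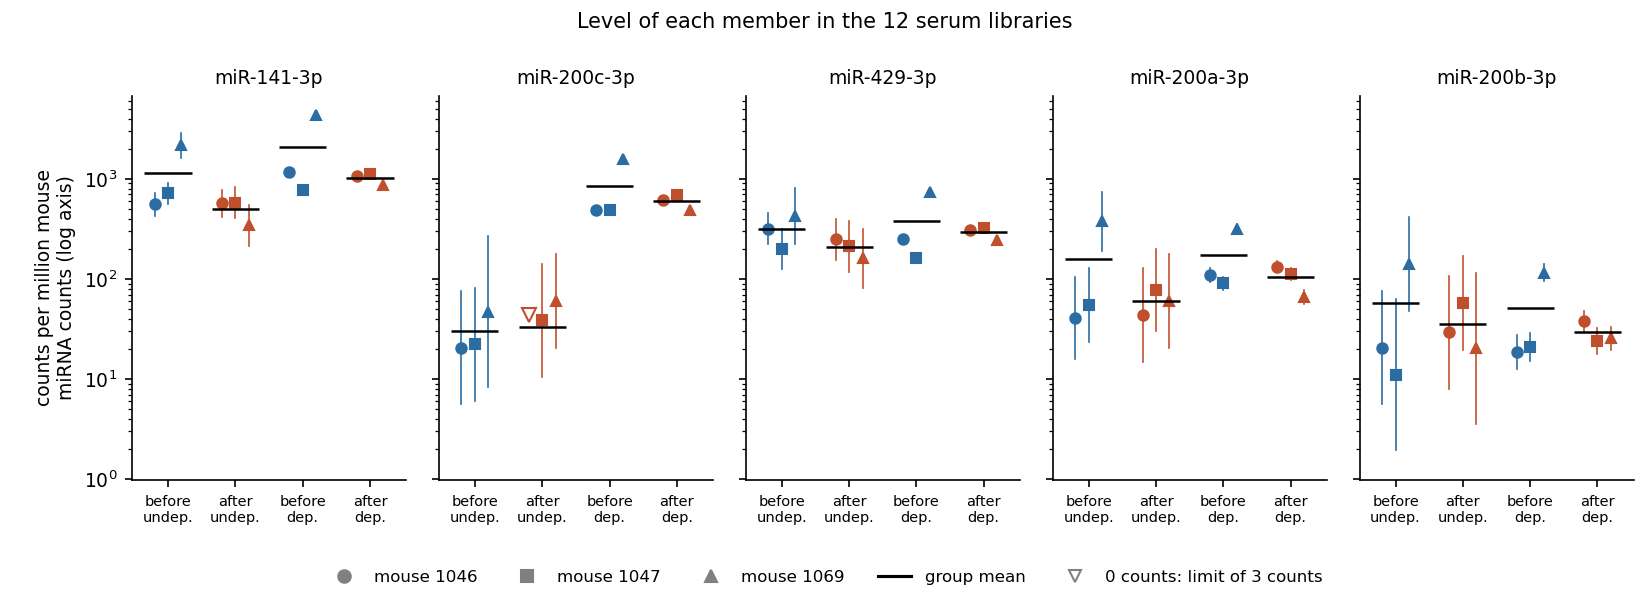
Level of each member in the 12 libraries, in CPM on a log axis, by group, with a symbol for each mouse, the group mean as a bar and the 95% Wilson interval of each library as a thin line. Only miR-200c-3p has depleted libraries (487 to 1575 CPM) wholly above its undepleted ones (0 to 60.7 CPM), and the first serum of mouse 1069 is the highest in every depleted panel.

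The order of the members was the same in 6 of 6 depleted libraries: miR-141-3p, miR-200c-3p, miR-429-3p, miR-200a-3p and miR-200b-3p. Within each of these libraries, every neighbouring pair in that order had 95% Wilson intervals that did not overlap. These intervals cover counting error only, and the conversion of molecules into counts was not measured for single miRNAs. Among all mouse miRNAs of a depleted library, miR-141-3p ranked between 33 and 74, miR-200c-3p between 59 and 91, and miR-429-3p between 83 and 114. In undepleted libraries miR-141-3p stayed above miR-429-3p in 6 of 6 libraries, with intervals apart in 4. miR-429-3p was above miR-200a-3p in 6 of 6, with intervals apart in 2. The last 3 members held 8 counts or fewer, and their intervals overlapped in 6 of 6 libraries. miR-200a-3p was above miR-200b-3p in 6 of 6 and above miR-200c-3p in 5 of 6, whereas miR-200b-3p was above miR-200c-3p in 3 and below it in 2.

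Within the family, the count relative to miR-141-3p differed most between the arms for miR-200c-3p. miR-200c-3p made up 26.5% to 38.7% of the summed counts of its cluster (miR-200c-3p plus miR-141-3p) in depleted libraries and 0% to 15% in undepleted ones. The 15% came from a library with 3 of 20 such counts, whose 95% Wilson interval reached 36.0%. The 0 came from 39 counts, with an upper limit of 8.97%. Relative to miR-141-3p, miR-200c-3p had a median count of 57.0% in depleted and 3.39% in undepleted libraries. The same median was 9.74% and 10.5% for miR-200a-3p, 2.68% and 5.51% for miR-200b-3p, and 24.8% and 40.1% for miR-429-3p. The chromosome 6 cluster gave 77.9% to 83.5% of the family's counts with depletion and 60.2% to 73.6% without. The members with the seed AACACUG gave 53.9% to 65.9% and 62.4% to 80.6%.

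**Figure D2:**
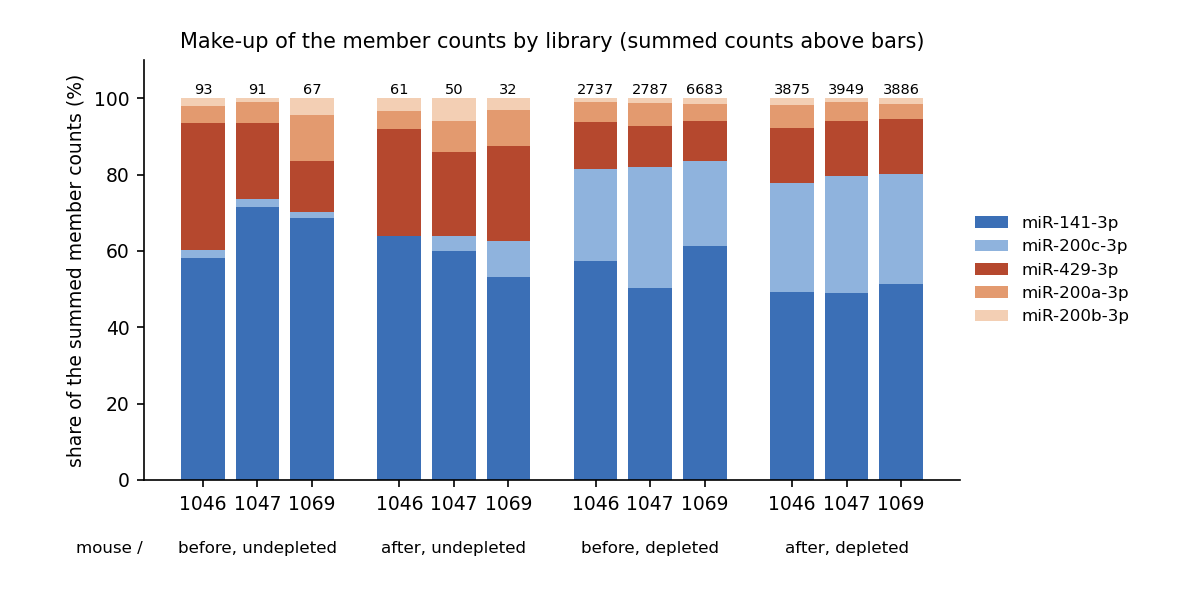
Share of each member in the summed counts of the 5 members, in percent, for each library by group and mouse, with the summed counts above each bar. The miR-200c-3p band takes 22.1% to 31.8% of each depleted bar and 0% to 9.38% of each undepleted one.

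To ask what removal of the tRNA-halves did to each miRNA, the aliquots of each serum were compared, and all 12 libraries were fitted in DESeq2 with time point and depletion as terms. The call rule, used in every fit but the interaction, was an adjusted p-value under 0.05 together with a 2-fold or larger change. Of 5 members 1 was called, miR-200c-3p, against 8.36% of the 383 miRNAs tested (32 called, 19 of them higher in depleted libraries, which is 4.96%, and 13 lower). With TMM scaling, an alternative way to set the size factors, 42 were called, 32 higher and 10 lower, with miR-200c-3p among them. With the standard size factors the log2 fold change of miR-200c-3p was 4.16 (SE 0.47, 95% interval 3.24 to 5.09, adjusted p = 4.12e-17 in DESeq2), which is 17.9-fold. Normalised counts averaged 201 ± 96 (SD, n = 6) in depleted and 9.63 ± 6.34 (SD, n = 6) in undepleted libraries. Only 1 of the 383 miRNAs had a larger log2 fold change, and 7 had a smaller p-value. Serum by serum, the level in the depleted aliquot was 23.7, 21.9 and 33.4 times that in the undepleted one before injection. After injection it was 18.02 and 8.11 times that level in mice 1047 and 1069. In mouse 1046 it was 14.1 times the limit of 3 counts set for the library with 0, and the exact 95% interval of that ratio began at 11.5. For the 5 sera with counts in both aliquots the exact 95% interval of the ratio lay above 1, the lowest reaching down to 2.77. These intervals cover counting error only, since amplified reads are not independent molecules.

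The counts behind these ratios show how large the gap was. At the share measured in the depleted aliquots, the 6 undepleted libraries would have held 227 counts of miR-200c-3p, between 24.3 and 47.4 each, and they held 10. In an exact two-sided sign-flip test over the 6 sera, miR-200c-3p was higher in the depleted aliquot in 6 of 6 (p = 0.03125, the smallest possible with 6 sera). The test takes the sera as independent, although each mouse gave a serum before and a serum after injection. Depleted and undepleted levels did not overlap for this miRNA, which was true in that direction of 62 of 874 miRNAs (7.09%). With serum as a block the log2 fold change was 3.70 (SE 0.43, adjusted p = 1.97e-16 in DESeq2).

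miR-141-3p, encoded next to miR-200c, moved in the same direction by a smaller amount. The depleted aliquot held 2.10, 1.07 and 2.02 times the level of the undepleted one before injection and 1.87, 1.92 and 2.56 times after it. It was higher in 6 of 6 sera (exact two-sided sign-flip test with sera taken as independent, p = 0.03125), although depleted and undepleted levels overlapped. Its log2 fold change of 0.80 (SE 0.35, adjusted p = 0.119 in DESeq2) was not called. With serum as a block it was 0.73 (SE 0.17, adjusted p = 0.000105 in DESeq2), still under 2-fold. With TMM scaling in DESeq2 it was 1.09 (SE 0.33, adjusted p = 0.00761) and called. TMM scaling moved the median log2 fold change of the tested miRNAs from -0.04 to 0.20.

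The remaining members were not called. miR-200a-3p had a log2 fold change of 0.52 (SE 0.43, adjusted p = 0.517 in DESeq2) and aliquot ratios between 0.843 and 3.02. miR-429-3p had a log2 fold change of 0.24 (SE 0.31, adjusted p = 0.779 in DESeq2) and ratios between 0.779 and 1.74. miR-200b-3p, which differs from miR-200c-3p at 2 of 22 bases and by the extra base at the end, had a log2 fold change of -0.06 (SE 0.56, 95% interval -1.17 to 1.04, adjusted p = 0.941 in DESeq2, 0.18 with TMM scaling) and ratios between 0.418 and 1.88. The upper end of its interval was below the lower end of that of miR-200c-3p. For comparison, the ratio of the aliquots over the 122 to 173 miRNAs compared in a serum had a median of 1.02 to 1.09. The 95th percentile was 2.18 to 2.41. A miRNA entered this comparison only where its depleted and its undepleted count each reached the cut-off of 4. Those nearly absent without depletion were thus left out, among them miR-200c-3p and miR-200b-3p, with at most 3 undepleted counts. The 95th percentile may therefore understate how high the ratios of such miRNAs reach.

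**Figure D3:**
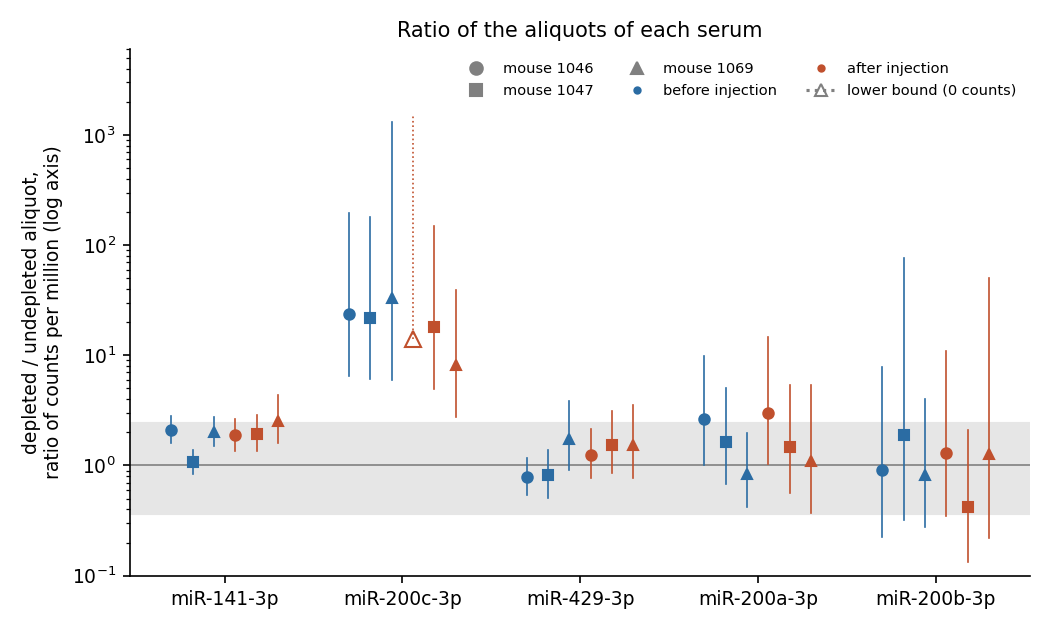
Ratio of the level in the depleted to that in the undepleted aliquot of each serum, from CPM on a log axis. The exact 95% interval of each ratio is drawn as a line, except where the undepleted count is 0, which has a dotted line upwards instead. A grey band runs from the lowest 5th to the highest 95th percentile (0.366 to 2.41). The band covers miRNAs whose depleted and undepleted counts each reached 4, which leaves out miR-200c-3p and miR-200b-3p. The 6 values of miR-200c-3p lie at 8.11 or more and the ratios of the other members at 3.02 or less. For the serum with 0 undepleted counts, the open triangle is set at the limit of 3 counts (14.1). The exact 95% interval of that ratio began lower, at 11.5.

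The serum drawn from mouse 1069 before injection stood apart in the whole family, and it was measured in both aliquots. In depleted libraries its levels were 5.89 times the mean of the other 2 sera drawn before injection for miR-200b-3p, 4.52 times for miR-141-3p, 3.60 times for miR-429-3p, 3.23 times for miR-200c-3p and 3.18 times for miR-200a-3p. Of 315 miRNAs compared in the same way, 45 (14.3%) were at least 3 times as high and the median was 1.21 times, so high levels in this serum were not limited to the family. In its undepleted aliquot the values were 7.79 times for miR-200a-3p (8 counts), 3.39 times for miR-141-3p (46 counts) and 1.63 times for miR-429-3p (9 counts), against at least 3 times for 9 of 117 miRNAs (7.69%). miR-200b-3p and miR-200c-3p had 3 counts and 1 count there. The share of miR-16-5p in this serum was 10.8% with and 14.5% without depletion, against 12.5% to 12.6% and 17.5% to 17.8% in the other 2 sera drawn before injection. Its part and that of the small depth of this serum in the high levels were not tested.

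The tumour comparison asked which serum miRNAs differed after injection, and it was fitted separately for each arm with time point as the only term. In depleted libraries 1 of 5 members was called, miR-141-3p, against 10.6% of the 310 miRNAs tested (33 called, 18 of them lower after injection, 5.81%). Its normalised count was 3396 ± 2740 (SD, n = 3) before and 1483 ± 149 (SD, n = 3) after injection, and its log2 fold change was -1.03 (SE 0.37, adjusted p = 0.0359 in DESeq2). The call was also made by edgeR (-1.09, adjusted p = 0.00969), by DESeq2 without the prior (-1.20, SE 0.43, adjusted p = 0.0388) and without mouse 1047 (-1.30, SE 0.42, adjusted p = 0.0496), but it depended on a single serum. miR-141-3p was lower after injection in 2 of 3 mice, and an exact two-sided permutation test of the levels gave p = 0.7, with 0.1 the smallest p this design allows. Without the first serum of mouse 1069, a fit added after the levels had been seen, the log2 fold change was -0.26 (SE 0.19, adjusted p = 0.285 in DESeq2). Without mouse 1069 altogether it was -0.20 (SE 0.19, adjusted p = 0.468). With mouse as a block it was -0.86 (SE 0.36, adjusted p = 0.113), and without mouse 1046 it was -1.22 (SE 0.47, adjusted p = 0.0626). With TMM scaling and with a filter on low counts it was -0.94 and -0.98, just under 2-fold.

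The other 4 members had log2 fold changes below 0 in depleted libraries, and none was called. The values were -0.79 (SE 0.36, adjusted p = 0.123 in DESeq2) for miR-200a-3p and -0.74 (SE 0.44, adjusted p = 0.246) for miR-200b-3p. They were -0.61 (SE 0.33, adjusted p = 0.194) for miR-200c-3p and -0.48 (SE 0.35, adjusted p = 0.340) for miR-429-3p. The median of the 5 members was -0.74, beside -0.09 over all miRNAs tested, of which 57.1% were below 0. Without the first serum of mouse 1069 the values were -0.28 for miR-200a-3p, 0.16 for miR-200b-3p, -0.05 for miR-200c-3p and 0.16 for miR-429-3p, so that miR-200b-3p and miR-429-3p changed sign. In CPM, each of these 4 members was lower after injection in 1 of 3 mice, mouse 1069. With DESeq2 size factors, miR-200a-3p was still at -0.08 in the fit without mouse 1069.

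In undepleted libraries none of the members was called, against 11.1% of the 108 miRNAs tested (12 called, 9 higher and 3 lower after injection, and 8 and 5 with TMM scaling). miR-141-3p averaged 62.1 ± 38.6 (SD, n = 3) normalised counts before and 26.8 ± 7.19 (SD, n = 3) after injection, with a log2 fold change of -0.95 (SE 0.39, adjusted p = 0.0653 in DESeq2). It was called by edgeR (log2 fold change -1.08, adjusted p = 0.0477) and by DESeq2 without the prior on fold changes (-1.15, SE 0.47, adjusted p = 0.0463). It was lower after injection in 2 of 3 mice (exact two-sided permutation test, p = 0.3, the smallest possible being 0.1). Without the first serum of mouse 1069 the value was -0.49 (SE 0.36, adjusted p = 0.318 in DESeq2). miR-429-3p had a log2 fold change of -0.47 (SE 0.44, adjusted p = 0.555 in DESeq2). miR-200a-3p, miR-200b-3p and miR-200c-3p were too low to be given an adjusted p-value, at 8, 3 and 3 counts or fewer in every undepleted library.

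The aliquots of a serum share their source, so the arms are not independent views of the tumour comparison. The share of miR-16-5p also fell between the time points, from 10.8% to 12.6% before to 5.62% to 7.71% after injection in depleted libraries, and its part in the family's values was not tested. Whether the tumour difference depended on depletion was tested by an interaction term. No member was called, as was none of the 874 miRNAs (0%). The interaction was 0.07 (SE 0.75) for miR-141-3p and -0.72 (SE 1.09) for miR-200c-3p on the log2 scale. It was 0.16 (SE 0.67) for miR-429-3p, 0.18 (SE 0.99) for miR-200a-3p and -0.71 (SE 1.31) for miR-200b-3p (adjusted p = 0.998 for each member in DESeq2). An unadjusted p under 0.05 was reached by 3 of the 874 miRNAs in DESeq2 and by 11 in edgeR, which also called 0. With serum as a block the interaction was 0.23 (SE 0.34, 95% interval -0.43 to 0.90) for miR-141-3p, an interval within 2-fold in either direction. It was 0.44 (95% interval -0.46 to 1.33) for miR-429-3p, and the intervals of the other 3 members reached beyond 2-fold in both directions (adjusted p = 0.999 for each member in DESeq2).

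**Figure D4:**
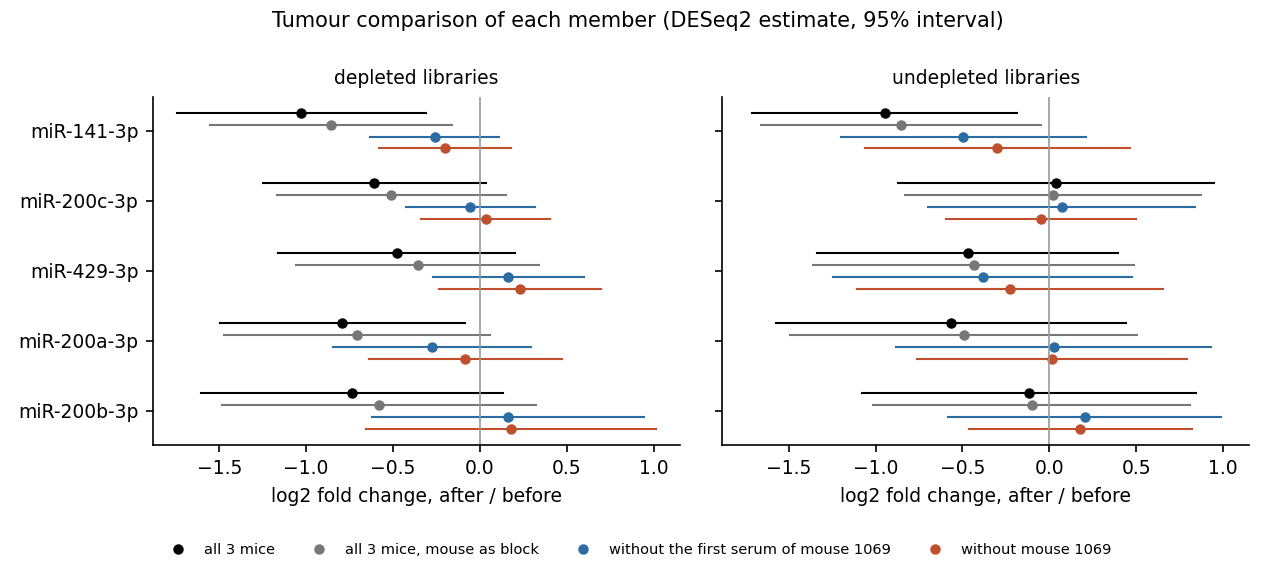
Log2 fold change after against before injection for each member in depleted and undepleted libraries, as the DESeq2 estimate with its 95% interval, from all 3 mice, with mouse as a block, without the first serum of mouse 1069 and without that mouse. In depleted libraries miR-141-3p moves from -1.03 to -0.26 when the first serum of mouse 1069 is left out, and the other members move to between -0.28 and 0.16.

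The arms also differed in how many members could be counted. With a cut-off of 4 counts, 5 of 5 members were detected in every depleted library and 2 or 3 in each undepleted one, with miR-141-3p and miR-429-3p present in all. When every library was reduced to the 21235 counts of the smallest, the expected number was 2.58 to 4.14 in depleted and 1.45 to 3 in undepleted libraries. At that depth the expected count of miR-200c-3p was 10.3 to 33.4 in depleted libraries and 0 to 1.29 in undepleted ones.

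Because the tables for human miRNAs were made from the same reads, the family was looked for there by its counts. Human rows with identical counts in 12 of 12 libraries were found for miR-200a-3p, miR-200b-3p and miR-200c-3p. For miR-141-3p the nearest row was equal in 11 of 12 libraries and differed by 9 of 13170 counts. For miR-429-3p no human row came within 10% of its 3102 counts, and the nearest differed by 791. The rows were paired by counts and not by name. Before injection such reads came from mice without human cells. After injection, an origin in the mouse and one in the human cells cannot be told apart for a read counted in both tables. None of these 4 rows was called in the human tables of depleted libraries, against 7.12% of the 323 miRNAs tested (23 called). The row of miR-141-3p had a log2 fold change of -0.90 (SE 0.36, adjusted p = 0.0903 in DESeq2) there. In undepleted libraries it was -0.93 (SE 0.38, adjusted p = 0.0569), the other 3 rows were too low to be tested, and 10.1% of the 89 miRNAs tested were called (6 higher and 3 lower after injection, and 6 and 7 with TMM scaling). In edgeR, the row of miR-141-3p was called in both arms, with log2 fold changes of -1.09 (adjusted p = 0.0181) and -1.16 (adjusted p = 0.0103).

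Over the 6 depleted libraries the members varied together, with a Pearson's r of log2(CPM + 1) of 0.885 to 0.958 between any 2 of them. Without the first serum of mouse 1069 the same values ran from 0.125 to 0.807, so the likeness rested largely on that serum. The libraries come from 3 mice and share that serum as their extreme point, and the values are a description. Among 305 miRNAs that reached 4 counts in each depleted library, the miRNAs outside the family most like the sum of the members were MIMAT0004828 (r = 0.993), MIMAT0004664 (r = 0.990) and MIMAT0000378 (r = 0.982). The files do not pair these accessions with names. Their levels in the first serum of mouse 1069 were 4.45, 2.94 and 2.99 times the mean of the other 2 sera drawn before injection.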

How the data were processed

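The authors trimmed adaptors with Cutadapt 1.8.1, removed reads that were short or lacked an adaptor, mapped the rest with Bowtie 1.1.2 without mismatches and assigned reads to miRBase coordinates on GRCm38/mm10 (mouse) or GRCh37/hg19 (human). How reads matching several loci were counted is not given in the sources used here. The deposited values are raw counts per mature miRNA, with a mouse and a human table for each library (TruSeq small RNA kit, 15 PCR cycles). A miRNA without reads is not listed and was taken as 0.

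Depleted and undepleted libraries and the mouse and human tables were fitted separately with DESeq2 1.42.0 (R 4.3.3), with the Wald test and the zero-centred prior, on all miRNAs with at least 1 count. Adjusted p-values (Benjamini-Hochberg) were computed over the miRNAs kept by the automatic DESeq2 filter on mean count, called tested here. In the mouse tables these were 310 of 861 fitted in depleted libraries, 108 of 442 in undepleted ones and 383 of 874 for depletion. The prior pulls the fold changes of low miRNAs towards 0. Depletion was fitted on all 12 libraries with time point as a covariate, and the interaction without the prior. Scripts were tested on simulated data. Alternatives were edgeR 4.0.16 (quasi-likelihood), TMM factors, a filter of 4 counts in 3 libraries, no prior, no fold cut-off, a block and leaving out each mouse. Intervals were Wilson (95%) or exact, computed in Python 3.11.15 with SciPy 1.17.1. Annotation was GENCODE on GRCm38. Aliquots of a serum and sera of a mouse pair by the labels. Their deviations from group means correlated at 0.45 on average (0.27 to 0.63) between aliquots of a serum and at -0.16 (-0.41 to 0.20) between sera of a mouse.

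The members and lists were chosen with earlier results of these data known. The named miRNAs were the 5 members, their human rows and the 3 miRNAs most like their sum. The partner strands, the other epithelial miRNAs and the cell type marker lists other than miR-16-5p could not be matched to accessions and were not analysed here.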

Additional observations from a re-analysis of the deposited data

Results flagged for a closer look

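In mouse 1047 before injection, the aliquots of the serum hardly differed in miR-141-3p (log2 ratio of depleted to undepleted 0.092, with 1402 and 65 counts), while the other 5 sera had ratios of 1.87-fold to 2.56-fold. The gap to the nearest serum was 0.645 of the range of the 6 values, beyond Dixon's 95% limit. Chance flags about 1 in 20 groups. The lowest and the highest serum of every member were checked in this way, so a flag somewhere in the family is likelier than that.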

How the results depend on the processing

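miR-200c-3p stayed called for depletion in every alternative run, with log2 fold changes of 3.66 to 4.79. The call of miR-141-3p in the tumour comparison of depleted libraries was kept in edgeR, without the prior, without the fold cut-off and without mouse 1047 (-1.03 to -1.30), and lost elsewhere: of the members, 0 were called with TMM factors or with the filter on low counts (both at -0.94 to -0.98, just under 2-fold), 0 with mouse as a block, and 0 to 1 when each mouse or the first serum of mouse 1069 was left out. In undepleted libraries 1 member was called instead of 0 in edgeR and without the prior. For depletion 2 were called instead of 1 in edgeR and with TMM factors. Of the human rows, 1 was called instead of 0 in edgeR (both arms) and with TMM factors (undepleted). The block changed no other member's call. The members detected per depleted library fell from 5 to 3.14 when thinned to the smallest library, and those per undepleted library went from 2.67 to 1.94 when thinned and to 4.83 with a cut-off of 1 count.

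Signs changed for several uncalled members. Leaving out a mouse or the first serum of mouse 1069 gave log2 fold changes, in depleted libraries, of -1.16 to 0.18 (miR-200b-3p), -0.81 to 0.033 (miR-200c-3p) and -0.75 to 0.23 (miR-429-3p). In undepleted libraries it gave -0.35 to 0.20 (miR-200b-3p), -0.69 to 0.027 (miR-200a-3p) and -0.048 to 0.16 (miR-200c-3p). For depletion it gave -0.23 to 0.093 (miR-200b-3p) and -0.11 to 0.42 (miR-429-3p). For the interaction it gave -0.091 to 0.33 (miR-141-3p), -0.97 to 0.19 (miR-200b-3p), -0.34 to 0.49 (miR-200a-3p), -1.52 to 0.72 (miR-200c-3p) and -0.0065 to 0.74 (miR-429-3p). For the human rows, leaving out a mouse gave -0.96 to 0.20 (miR-200b-3p) and -0.70 to 0.077 (miR-200c-3p) in depleted and -0.32 to 0.18 (miR-200b-3p), -0.038 to 0.15 (miR-200c-3p) and -0.64 to 0.030 (miR-200a-3p) in undepleted libraries. The depletion value of miR-200b-3p was 0.27 in edgeR and 0.18 with TMM factors. The interaction was -0.14 in edgeR and -0.10 with TMM factors for miR-141-3p, and -0.093 in edgeR for miR-200a-3p. The median log2 fold change of all tested miRNAs moved with TMM factors from -0.04 to 0.20 for depletion and from -0.05 to -0.17 in the undepleted human tables.

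Over all miRNAs, the calls in depleted libraries went from 33 to 52 without the fold cut-off, 11 without mouse 1047 and 19 without mouse 1069. In undepleted libraries they went from 12 to 21, 1 and 7 in the same settings. For depletion they went from 32 to 55 without the fold cut-off and 19 without mouse 1046. In the human tables they went from 23 to 43 (edgeR), 37 (no fold cut-off), 14 (without mouse 1046) and 6 (without mouse 1047) in depleted libraries. In undepleted libraries they went from 9 to 15 (edgeR), 21 (no fold cut-off) and 1 (without mouse 1047). The causes of these changes were not tested. Leaving out a mouse also leaves fewer libraries in the fit, and the part of this in the lost calls was not tested. Low counts limit the undepleted arm, where 3 of the 5 members never passed 8 counts. The p-values of the tumour fits without a block rest on the spread between the libraries within a group. In the groups drawn before injection, the serum of mouse 1069 stood apart. The fit for depletion without a block takes the aliquots of a serum as separate libraries.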
